A study of Rattus norvegicus with 30 samples.

Results

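The 9 genes Grk5, Meox2, Aass, Ddc, Cers6, Cym, Uggt1, Tsku and Srpx, which have no place in classic drug metabolism, were followed across a phenobarbital study of cultured rat liver cells. They were chosen from the measured values: each had a probe set with a higher signal at 300 µM phenobarbital than in vehicle, at 24 h or 48 h, with an adjusted p under 0.05. On the Affymetrix rat array the 9 genes have 10 probe sets of the 31099 in the table (Ddc has a pair), and all 10 reached the signal level needed for testing. The cells were primary hepatocytes of male Sprague Dawley rats, bought frozen, plated on collagen with Matrigel laid over them, and dosed on day 3 of culture. The 6 groups were vehicle, 300 µM and 3000 µM phenobarbital harvested after 24 h, and the same 3 after 48 h, with 5 culture wells and 1 array per well in each. The vehicle is called water in the titles and culture medium where the labels name the agent. The labels give no animal or donor numbers, so the spread between wells does not measure the spread between animals.

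Phenobarbital is a barbiturate used against seizures. In rat liver it activates the constitutive androstane receptor, CAR, and in part the pregnane X receptor, PXR, which bind DNA with a shared partner and switch on P450, conjugation and transport genes. The 9 genes described here act elsewhere. Grk5 encodes a kinase that phosphorylates active G protein-coupled receptors and so dampens them, and Meox2 encodes a homeobox transcription factor known from muscle and blood vessels. Aass encodes the mitochondrial enzyme that starts lysine breakdown, Ddc the decarboxylase that makes dopamine and serotonin from their precursors, and Cers6 a ceramide synthase. Cym encodes chymosin, a milk-clotting aspartic protease of the stomach. Uggt1 encodes the sensor of the endoplasmic reticulum that adds glucose to misfolded glycoproteins so that they stay in the folding cycle. Tsku encodes tsukushi, a secreted leucine-rich repeat protein made in liver, and Srpx a secreted protein with sushi repeats.

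The deposited values are MAS5 signals, whose trimmed mean was the same on every array to within 1 unit; array medians lay between 349 and 425. Signals are compared within a probe set and never between probe sets, since each binds its target with its own strength. The 11 hepatocyte markers on the array, such as Alb and Apoa1, all reached the tested level, while 8 of 14 stellate cell and fibroblast markers (Col1a2, Dcn, Hgf, Lrat, Lum, Ngfr, Pdgfrb and Tagln), 7 of 10 endothelial ones and 7 of 10 lymphocyte ones did not, and 8 of 11 macrophage and 3 of 8 bile duct markers did. The summed signal of the 14 stellate cell and fibroblast markers was lower at 3000 µM (8425 to 10394 at 24 h and 8438 to 11128 at 48 h) than in vehicle (15909 to 16848 and 17255 to 19084), with Vim as the marker that fell, and 8 of 11 hepatocyte markers were lower at 3000 µM at 24 h and 4 at 48 h. At 300 µM the stellate cell and fibroblast sum was also below vehicle (12345 to 15117 at 24 h and 15138 to 16629 at 48 h), and Vim was lower at 24 h. Macrophage markers went both ways at 3000 µM at 24 h, with Lyz2 and Cd68 higher and Cd14, C1qa and C1qb lower. The part of these shifts in the results was not tested. In such bulk RNA fewer cells of a type, less RNA per cell and a change in a single gene such as Vim cannot be told apart. In 9 hybridization control probe sets, vehicle array 1 at 24 h and 3000 µM array 4 at 48 h deviated from the other arrays, by 0.92 and 1.34 on the log2 scale against -0.20 to 0.12 on the other arrays, so member results that rest on them are also given without them.

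At 300 µM the genes were higher than in vehicle by the rule that chose them, and their levels there are a description only. Of the 10 probe sets, 7 met the rule's threshold at 24 h and 8 at 48 h (1.72% and 0.813% of all 16596 tested probe sets were higher), and 7 and 9 had all 5 arrays above all 5 vehicle arrays (2.78% and 2.22% of all). The median difference of the 10 was 0.91 at 24 h and 0.95 at 48 h, against 0.0013 and -0.015 over all tested probe sets. Nearest to the threshold on its inner side were Meox2 at 24 h (adjusted p 0.0177) and Cers6 at 48 h (0.0101), and on its outer side Srpx at 24 h (0.0658), while at 48 h the first member beyond it was Meox2, at 0.253. These values only describe the choice. The dimmer Ddc probe set met it at neither time and is here because it reads a listed gene.

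At 3000 µM, the dose the rule did not use, the genes parted. Aass, Tsku, Srpx and Cers6 were higher than vehicle at both times, Grk5 was higher at both but lower than at 300 µM, and Uggt1 was higher at 24 h. The brighter Ddc probe set did not pass at 24 h and was lower at 48 h. Cym and the dimmer Ddc probe set passed at neither time. For Meox2 the means of vehicle and 3000 µM were both below the tested level, so no difference is given. The arrays of Ddc, Meox2 and Cym at 3000 µM overlapped vehicle at both times. Those of Grk5, Srpx, Cers6 and Uggt1 overlapped it at 48 h. In counts, 6 of 10 probe sets were higher at 3000 µM than in vehicle at 24 h and 0 lower, against 17.3% and 14.8% of all tested probe sets (limma), and these 6 were also the ones with an unadjusted p under 0.05. At 48 h 5 were higher and 1 was lower, against 19.5% and 19.9% of all. All 5 arrays at 3000 µM lay above all 5 vehicle arrays in 6 probe sets at 24 h and in 2, Aass and Tsku, at 48 h (13.2% and 11.5% of all). The members' median difference from vehicle was 0.56 at 24 h and 0.44 at 48 h, against 0.0093 and -0.00083 over all tested probe sets. The comparison with vehicle shares its vehicle arrays with the rule, so a higher value at 3000 µM is not independent of the choice.

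**Figure D1:**
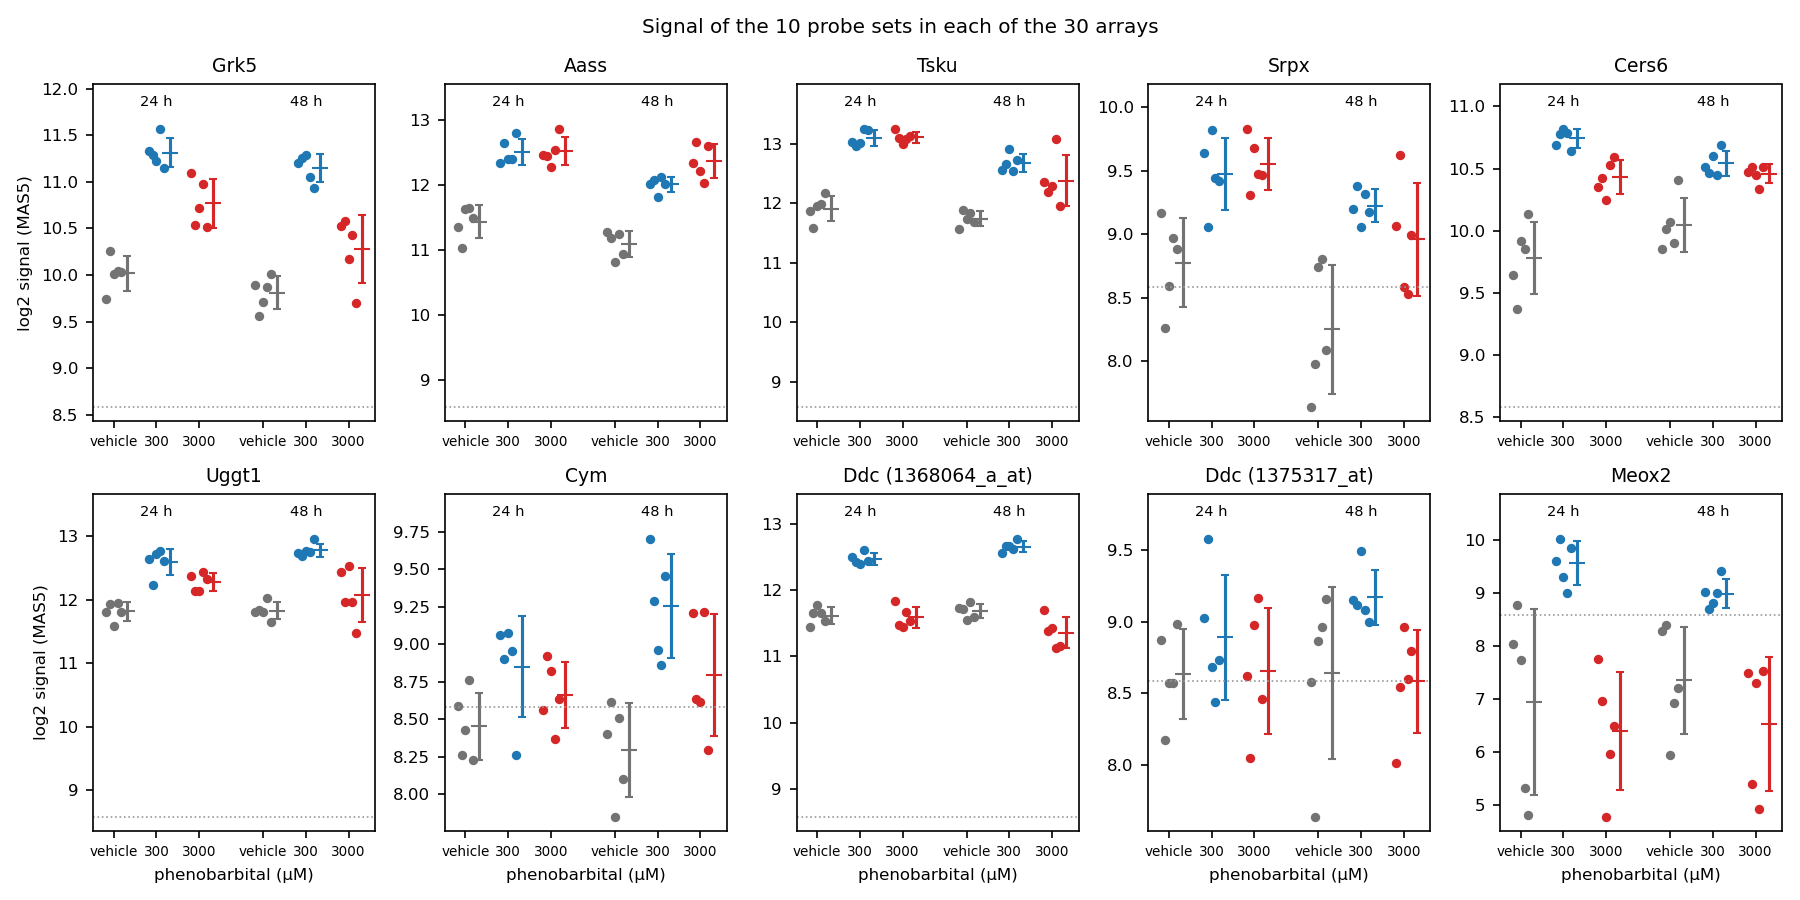
Signal of each of the 10 probe sets on the log2 scale in the 5 arrays of each group, with the mean and SD beside the points and the level needed for testing as a dotted line. In Aass and Tsku all treated arrays lie above the vehicle arrays of their time. In Tsku at 48 h 4 of 5 arrays at 3000 µM lie below the 300 µM arrays. In the brighter Ddc probe set and Meox2 the 3000 µM arrays overlap the vehicle arrays.

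The promoters of the members are shown for reading beside these dose patterns. RefSeq windows from 250 bases before to 50 bases after the annotated starts, on the rat build GRCr8, were at hand for all 9 genes (11 windows, since Ddc has 3 starts). Those of Grk5, Cers6, Uggt1 and Tsku held 25, 30, 33 and 30 CpG pairs at 67.3% to 70.0% G and C, while the other 7 windows held 2 to 8, near the median of 7 over all 33469 windows, whose median G and C content was 51.7%. The 4 windows shown belong to Aass and Tsku, which were above vehicle at 3000 µM at both times, and to Ddc and Meox2, whose arrays at 3000 µM overlapped vehicle. Capitals mark AGGTCA or AGTTCA on either strand (TGACCT and TGAACT on the printed strand), the half-site letters that nuclear receptors such as CAR and PXR are known to bind; all sequences run 5′ to 3′ on the gene's strand.
Aass (chr4:52628762-52629061, minus strand): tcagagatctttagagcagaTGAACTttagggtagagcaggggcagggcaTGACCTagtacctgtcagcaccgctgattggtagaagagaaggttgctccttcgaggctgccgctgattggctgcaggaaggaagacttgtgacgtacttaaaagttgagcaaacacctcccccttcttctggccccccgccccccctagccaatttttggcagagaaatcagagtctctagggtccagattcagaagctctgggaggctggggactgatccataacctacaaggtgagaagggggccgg
Tsku (chr1:162082719-162083018, minus strand): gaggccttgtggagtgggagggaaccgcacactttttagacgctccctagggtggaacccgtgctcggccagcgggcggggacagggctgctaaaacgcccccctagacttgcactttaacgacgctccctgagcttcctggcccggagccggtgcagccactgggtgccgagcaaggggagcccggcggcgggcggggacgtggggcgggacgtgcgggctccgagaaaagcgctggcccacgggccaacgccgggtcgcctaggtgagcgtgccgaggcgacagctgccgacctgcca
Ddc (chr14:90682734-90683033, minus strand): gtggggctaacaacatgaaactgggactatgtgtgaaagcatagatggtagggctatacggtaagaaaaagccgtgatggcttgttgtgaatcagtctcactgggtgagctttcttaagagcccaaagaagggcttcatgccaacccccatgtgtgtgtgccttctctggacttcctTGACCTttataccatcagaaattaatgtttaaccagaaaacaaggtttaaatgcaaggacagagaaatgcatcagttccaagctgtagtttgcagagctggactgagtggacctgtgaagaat
Meox2 (chr6:59583775-59584074, plus strand): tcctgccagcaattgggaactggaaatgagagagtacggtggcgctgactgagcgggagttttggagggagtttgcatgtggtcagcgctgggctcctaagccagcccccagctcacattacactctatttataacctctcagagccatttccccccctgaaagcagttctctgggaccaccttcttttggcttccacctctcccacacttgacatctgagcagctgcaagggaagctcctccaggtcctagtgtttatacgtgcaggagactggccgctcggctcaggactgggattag

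The Aass window held both half-site letters and the printed Ddc window AGGTCA, and the windows of Tsku and Meox2 held neither. Among the windows not printed, a further Ddc start had both, Srpx had AGTTCA, and the others had neither. AGGTCA is in 16.2% and AGTTCA in 14.5% of all windows of this length on either strand. A direct repeat of AGNTCA with 4 bases between, which no member's window held, is in 0.0568% of them. These are letter matches in short windows and not binding sites.

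Grk5, the receptor kinase gene, had a graded pattern, highest at 300 µM, lower at 3000 µM and lowest in vehicle. At 24 h the signal was 856, 1224, 1028, 1051 and 1050 in vehicle, 2574, 2505, 2396, 3035 and 2274 at 300 µM and 2189, 1487, 1691, 2014 and 1461 at 3000 µM. At 48 h it was 953, 757, 837, 937 and 1035 in vehicle, 2357, 2438, 2504, 2124 and 1957 at 300 µM and 1473, 1529, 1156, 1380 and 829 at 3000 µM. The groups at 300 µM overlapped neither of the others at either time, while at 48 h array 5 at 3000 µM fell among the vehicle arrays. The log2 difference of 300 µM from vehicle was 1.30 (95% interval 1.02 to 1.57) at 24 h and 1.34 (95% interval 1.06 to 1.61) at 48 h. At 3000 µM Grk5 rose over vehicle by 0.75 (95% interval 0.48 to 1.03, limma adjusted p 4.52e-05) at 24 h and 0.47 (95% interval 0.19 to 0.75, limma adjusted p 0.00585) at 48 h. In the order of the 6 group means, each neighbouring pair overlapped in its arrays. Of 10 tested probe sets of other receptor kinases, arrestins, Rgs genes and hormone receptors, 3 fell at 3000 µM at 24 h and 2 at 48 h, and the rest did not pass. Over all tested probe sets 14.8% fell at 24 h and 19.9% at 48 h, so these few calls are not read as a response of the list. Rgs16, a brake on G protein signalling, fell most (-1.68, limma adjusted p 5.38e-15 at 24 h and -1.52 at 48 h). Gcgr, the glucagon receptor gene, fell at 24 h (-0.49, limma adjusted p 0.0135). At 300 µM none of these 10 passed at either time (limma, 1 with an unadjusted p under 0.05 at each).

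Meox2, the homeobox gene, reached the tested level, as a group mean, in the 300 µM groups alone. Its 24 h signal was 264, 436, 213, 40.1 and 28.3 in vehicle, 778, 1034, 626, 511 and 923 at 300 µM and 215, 124, 27.5, 62.7 and 90 at 3000 µM. After 48 h it was 309, 336, 61.9, 122 and 147 in vehicle, 515, 413, 445, 512 and 681 at 300 µM and 179, 42.3, 157, 30.5 and 184 at 3000 µM. Every array at 300 µM lay above the vehicle and 3000 µM arrays of its time, and the means of vehicle and 3000 µM lay below the tested level of 384 at both times. With the vehicle mean set at the tested level, the 300 µM mean was 1.96-fold higher at 24 h and 1.32-fold higher at 48 h. These folds compare a mean with a filter level, carry no sampling error and are not least effects. At 48 h the 95% interval of the log2 difference from vehicle ran from 0.32 to 2.95. Its lower end was under the 0.40 of that fold. The measured log2 means were 9.55 at 300 µM and 6.94 in vehicle at 24 h, and 8.98 and 7.35 at 48 h. With both 3000 µM and vehicle below the level, no difference between them is given. The probe set was tested because of the 300 µM groups, the same that chose it. In the order of the means, 300 µM at 48 h did not overlap the next group, vehicle at 48 h, and the other neighbours overlapped. Array 2 of vehicle at 24 h did lie within the 300 µM range at 48 h. Of 22 tested probe sets of other homeobox genes, 2 rose and 5 fell at 3000 µM at 24 h, and 1 rose and 12 fell at 48 h. Of all tested probe sets 17.3% rose and 14.8% fell at 24 h, and 19.5% and 19.9% at 48 h. Prox1, a regulator of hepatocyte identity, fell at both times (-0.59, limma adjusted p 1.85e-05, and -1.04, limma adjusted p 4.18e-10), and Onecut1, another liver factor, fell at 48 h (-1.24, limma adjusted p 4.63e-07). At 300 µM 1 of the 22 fell at each time and the others did not pass.

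Aass, the lysine-degrading enzyme gene, had means at 3000 µM that were no lower than at 300 µM. Its 24 h signal was 2616, 2097, 3178, 3206 and 2870 in vehicle, 5139, 6363, 5362, 5386 and 7082 at 300 µM and 5647, 5575, 4961, 5907 and 7421 at 3000 µM. The 48 h signal was 2483, 2312, 1795, 2427 and 1966 in vehicle, 4127, 4307, 3581, 4457 and 4126 at 300 µM and 5157, 6440, 4747, 4166 and 6190 at 3000 µM. No treated array of either dose fell within the vehicle range of its time. Relative to vehicle, the log2 difference at 300 µM was 1.08 (95% interval 0.82 to 1.33) at 24 h and 0.91 (95% interval 0.66 to 1.17) at 48 h. At 3000 µM Aass rose over vehicle by 1.08 (95% interval 0.83 to 1.34, limma adjusted p 2.89e-08) at 24 h and 1.27 (95% interval 1.02 to 1.53, limma adjusted p 6.04e-10) at 48 h, the largest differences from vehicle among the members at 48 h. In the order of the 6 means, the 4 treated groups came first, overlapping in sequence, and a gap separated them from vehicle.

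Genes listed around this pathway more often fell than rose at 3000 µM. The list held genes of lysine and tryptophan breakdown, and also Hadh, Echs1, Acat1, Ogdh and the amino acid carriers Slc7a1 and Slc7a2. It is therefore wider than the breakdown to glutaryl-CoA. Of 24 tested probe sets for the listed genes besides Aass, 3 rose and 14 fell at 3000 µM at 24 h, and 3 rose and 12 fell at 48 h. Their median difference was -0.36 at 24 h and -0.23 at 48 h, against 0.0093 and -0.00083 over all tested probe sets. Of all tested probe sets 17.3% rose and 14.8% fell at 24 h, and 19.5% and 19.9% at 48 h. Hadh, a dehydrogenase of mitochondrial fatty acid oxidation, fell in its brighter probe set (-1.10, limma adjusted p 1.57e-13 at 24 h and -1.27 at 48 h). Acmsd, which steers tryptophan breakdown away from NAD synthesis, rose (1.19, limma adjusted p 6.34e-13 at 24 h and 1.43 at 48 h). At 300 µM 1 of the 24 rose and 2 fell at 24 h, and at 48 h none passed (limma, 7 with an unadjusted p under 0.05).

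Ddc, the aromatic amino acid decarboxylase gene, was higher at 300 µM and back at or under vehicle at 3000 µM. Its brighter probe set read 2797, 3227, 3506, 3216 and 2979 in vehicle at 24 h, 5786, 5480, 5356, 6235 and 5524 at 300 µM and 3653, 2839, 2788, 3253 and 2953 at 3000 µM. At 48 h it read 3412, 3368, 3002, 3621 and 3090 in vehicle, 6007, 6515, 6495, 6261 and 7002 at 300 µM and 3316, 2680, 2755, 2228 and 2281 at 3000 µM. The 300 µM arrays lay far above all others, and vehicle and 3000 µM overlapped at both times. The log2 difference of 300 µM from vehicle was 0.85 (95% interval 0.68 to 1.03) at 24 h and 0.97 (95% interval 0.79 to 1.15) at 48 h. At 3000 µM that from vehicle was -0.025 (95% interval -0.20 to 0.15, limma adjusted p 0.864) at 24 h, and at 48 h Ddc fell, with a difference of -0.33 (95% interval -0.51 to -0.15, limma adjusted p 0.00314). The dimmer probe set had signals of 347 to 764 at 300 µM at 24 h and 511 to 721 at 48 h, against 289 to 507 and 199 to 572 in vehicle. Its differences at 3000 µM from vehicle, 0.018 (95% interval -0.49 to 0.53) and -0.06 (95% interval -0.57 to 0.45), did not pass (adjusted p 0.969 and 0.88), so the fall of the brighter one at 48 h was not seen in it. The pair correlated at r = 0.39 over the 30 arrays, and at -0.28 after the group means were taken off.

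Among 10 tested probe sets of other genes of aromatic amine synthesis and breakdown, 1 rose and 2 fell at 3000 µM at 24 h, and 2 rose and 1 fell at 48 h. The shares over all tested probe sets were 17.3% and 14.8% at 24 h, and 19.5% and 19.9% at 48 h. Nothing particular to the list is read from these counts. Gch1, whose enzyme starts the synthesis of the cofactor tetrahydrobiopterin, rose at both times by 0.16 and 0.27, and Gchfr, its feedback regulator, fell (-0.61, limma adjusted p 9.36e-07 at 24 h and -0.57 at 48 h). Maoa, a monoamine oxidase, rose at 48 h (0.19, limma adjusted p 0.0259). At 300 µM 1 of the 10 rose at each time and the other 9 did not pass.

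Cers6, the ceramide synthase gene, was higher at both doses than in vehicle. At 24 h its signal was 800, 663, 966, 923 and 1126 in vehicle, 1648, 1756, 1805, 1769 and 1593 at 300 µM and 1304, 1377, 1216, 1475 and 1544 at 3000 µM. After 48 h it was 925, 1031, 1076, 957 and 1356 in vehicle, 1457, 1414, 1556, 1400 and 1651 at 300 µM and 1422, 1464, 1398, 1290 and 1463 at 3000 µM. The 3 doses did not overlap at 24 h, while at 48 h both treated groups overlapped each other, and array 5 of vehicle lay within the range at 3000 µM. Relative to vehicle, the log2 difference at 300 µM was 0.96 (95% interval 0.74 to 1.18) at 24 h and 0.50 (95% interval 0.27 to 0.72) at 48 h, and vehicle itself was 0.26 higher at 48 h than at 24 h (95% interval 0.042 to 0.49). At 3000 µM Cers6 rose over vehicle by 0.64 (95% interval 0.42 to 0.87, limma adjusted p 1.88e-05) and 0.41 (95% interval 0.19 to 0.63, limma adjusted p 0.00298). Each neighbouring pair in the order of means overlapped.

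Of 23 tested probe sets of other sphingolipid genes, 3 rose at 3000 µM at 24 h and the rest did not pass, and at 48 h 7 rose and 3 fell. Over all tested probe sets 17.3% rose and 14.8% fell at 24 h, and 19.5% and 19.9% at 48 h. Ugcg, which makes glucosylceramide, rose at both times (0.72, limma adjusted p 2.21e-05, and 0.68, limma adjusted p 3.21e-05), as did the sphingosine kinase gene Sphk2 (0.40 and 0.66). Sphk1, which encodes the other sphingosine kinase, is among the 3 called lower at 48 h. Its log2 means there, 8.55 in vehicle and 7.46 at 3000 µM, were both below the tested level, so nothing is read from that call. The median difference of the 23 was 0.006 at 24 h and 0.023 at 48 h, close to that of all probe sets. At 300 µM none of them passed at either time (limma, 1 with an unadjusted p under 0.05 at each).

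Cym, the chymosin gene, was dim throughout, with vehicle means under the tested level at both times. Its 24 h signal was 384, 307, 344, 433 and 300 in vehicle, 534, 477, 538, 497 and 306 at 300 µM and 377, 484, 453, 330 and 398 at 3000 µM. The 48 h signal was 339, 392, 231, 364 and 274 in vehicle, 833, 625, 498, 465 and 702 at 300 µM and 593, 398, 391, 593 and 314 at 3000 µM. At 300 µM array 5 was low at 24 h and overlapped vehicle, and at 48 h all 5 arrays lay above vehicle. The log2 difference of 300 µM from vehicle was 0.40 (95% interval -0.024 to 0.82) at 24 h and 0.96 (95% interval 0.54 to 1.38) at 48 h. At 3000 µM it was 0.21 (95% interval -0.21 to 0.63, limma adjusted p 0.489) at 24 h and 0.50 (95% interval 0.077 to 0.92, limma adjusted p 0.0544) at 48 h, and neither passed. The 48 h difference passed without array 2 or 4 of vehicle or array 5 at 3000 µM (adjusted p 0.0202 to 0.0488, and 0.0202 to 0.163 over all alternatives). Each neighbouring pair in the order of means overlapped, from 300 µM at 48 h at the top to vehicle at 48 h. Among 4 tested probe sets of other aspartic proteases, the cathepsin gene Ctse fell at both times (-0.55, limma adjusted p 0.0324, and -1.02, limma adjusted p 9.88e-05), and the lysosomal cathepsin gene Ctsd rose at 48 h (0.33, limma adjusted p 0.0098).

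Uggt1, the glycoprotein folding sensor gene, was highest at 300 µM and intermediate at 3000 µM. Its 24 h signal was 3593, 3902, 3059, 3952 and 3560 in vehicle, 6342, 4819, 6702, 6944 and 6234 at 300 µM and 5297, 4490, 4496, 5539 and 5141 at 3000 µM. After 48 h it was 3576, 3636, 3583, 4172 and 3211 in vehicle, 6804, 6572, 6927, 6870 and 7941 at 300 µM and 5514, 3990, 5923, 3999 and 2841 at 3000 µM. At 48 h the arrays at 3000 µM were widely spread, with array 5 below all vehicle arrays and arrays 1 and 3 above them. Relative to vehicle, the log2 difference at 300 µM was 0.78 (95% interval 0.51 to 1.04) at 24 h and 0.95 (95% interval 0.69 to 1.21) at 48 h. At 3000 µM Uggt1 rose over vehicle at 24 h by 0.47 (95% interval 0.20 to 0.73, limma adjusted p 0.00509), and its difference at 48 h, 0.25 (95% interval -0.013 to 0.51, limma adjusted p 0.128), did not pass. Without array 5 at 3000 µM the 48 h difference was 0.40 and passed (adjusted p 0.00452). The neighbouring pairs in the order of means overlapped. Of 28 tested probe sets of other genes of the folding cycle of glycoproteins, 5 rose and 7 fell at 3000 µM at 24 h, and 9 rose and 6 fell at 48 h. The shares over all tested probe sets were 17.3% and 14.8% at 24 h, and 19.5% and 19.9% at 48 h. Nothing particular to the list is read from these counts. Edem1, which sends misfolded glycoproteins to degradation, fell in both probe sets at both times (brighter probe set -0.58 and -0.82, dimmer -1.07 and -0.92). Canx, the chaperone calnexin that binds what Uggt1 has marked, rose at 48 h (0.58, limma adjusted p 4.83e-06). At 300 µM 4 of the 28 fell at 24 h, and at 48 h none passed (limma, 7 with an unadjusted p under 0.05).

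Tsku, the tsukushi gene, was about as high at 3000 µM as at 300 µM at 24 h and was lower at 48 h than at 24 h. Its 24 h signal was 3733, 3080, 3953, 4040 and 4594 in vehicle, 8387, 8019, 8230, 9725 and 9654 at 300 µM and 9708, 8771, 8131, 8701 and 9007 at 3000 µM. The 48 h signal was 3031, 3799, 3404, 3660 and 3303 in vehicle, 6050, 6460, 7699, 5930 and 6805 at 300 µM and 5248, 4674, 5029, 8699 and 3977 at 3000 µM. Array 4 at 3000 µM at 48 h, which stood apart in its hybridization controls, was far above the other 4, and all treated arrays lay above the vehicle arrays of their time. Relative to vehicle, the log2 difference at 300 µM was 1.19 (95% interval 0.93 to 1.45) at 24 h and 0.94 (95% interval 0.68 to 1.20) at 48 h. At 3000 µM Tsku rose over vehicle by 1.20 (95% interval 0.94 to 1.46, limma adjusted p 7.44e-09) at 24 h and 0.63 (95% interval 0.37 to 0.89, limma adjusted p 0.000152) at 48 h. Without both arrays that stood apart the 48 h value was 0.46 (adjusted p 0.000259; over all alternatives the adjusted p was at most 0.00676). In the order of the 6 means both treated groups of 24 h came first and did not overlap 300 µM at 48 h, while the other neighbours overlapped.

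Of 15 tested probe sets of leucine-rich repeat proteins, such as Omd, and of TGF-beta and Wnt modulators and targets, 1 rose and 4 fell at 3000 µM at 24 h, and 1 rose and 6 fell at 48 h. Over all tested probe sets 17.3% rose and 14.8% fell at 24 h, and 19.5% and 19.9% at 48 h. Id2, an inhibitor of bHLH transcription factors, fell at 24 h in both probe sets (-1.09 and -0.84), and Hamp, which encodes the iron hormone hepcidin, fell at both times (-0.77, limma adjusted p 0.0024, and -1.80, limma adjusted p 6.14e-09). Id3 rose at 48 h (1.03, limma adjusted p 4.03e-07). At 300 µM none of the 15 passed at either time (limma, 1 and 4 with an unadjusted p under 0.05 at 24 h and 48 h).

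Srpx, the sushi repeat gene, was dim and higher at both doses. Its 24 h signal was 575, 307, 386, 502 and 473 in vehicle, 797, 533, 904, 694 and 686 at 300 µM and 910, 633, 819, 713 and 707 at 3000 µM. After 48 h it was 199, 252, 429, 447 and 272 in vehicle, 586, 667, 532, 636 and 580 at 300 µM and 537, 788, 383, 369 and 510 at 3000 µM. All arrays at 3000 µM lay above vehicle at 24 h, and at 48 h arrays 3 and 4 fell within the vehicle range. The vehicle mean at 48 h was under the tested level, so the 48 h differences from vehicle are less sure than those at 24 h. The log2 difference of 300 µM from vehicle was 0.70 (95% interval 0.27 to 1.13) at 24 h and 0.98 (95% interval 0.55 to 1.40) at 48 h. At 3000 µM Srpx rose over vehicle by 0.78 (95% interval 0.35 to 1.20, limma adjusted p 0.00447) and 0.71 (95% interval 0.28 to 1.14, limma adjusted p 0.00729), and the second call was lost when only the compared groups were in the fit (adjusted p 0.0628, over all alternatives 0.00208 to 0.0628). Neighbouring pairs in the order of means overlapped. Of 9 tested probe sets of other sushi repeat proteins, 1 rose and 4 fell at 3000 µM at 24 h, and 4 fell at 48 h while 5 did not pass. Of all tested probe sets 17.3% rose and 14.8% fell at 24 h, and 19.5% and 19.9% at 48 h. C4bpa and C4bpb, the chains of the complement inhibitor C4b-binding protein, fell at both times (C4bpa -0.55, limma adjusted p 4.48e-05, and -0.91, limma adjusted p 5.04e-09; C4bpb -0.51 and -1.07). At 300 µM none of the 9 passed at either time (limma, 2 with an unadjusted p under 0.05 at each).

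**Figure D2:**
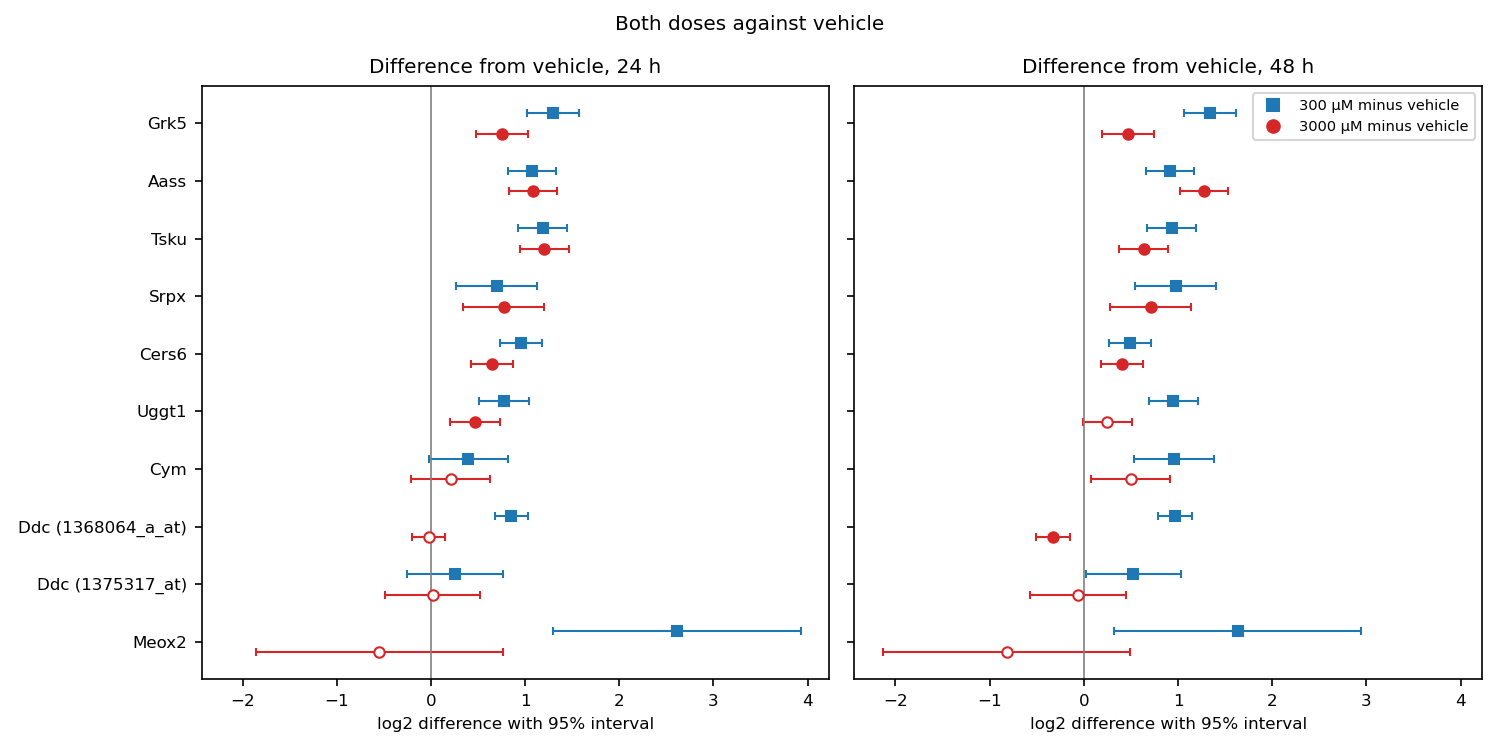
Log2 difference from vehicle, with 95% intervals from limma, of the 10 probe sets at 24 h (left) and 48 h (right); blue squares are 300 µM, which chose the genes, and red circles 3000 µM, filled where the adjusted p was under 0.05. At 3000 µM Aass lies at 1.08 and 1.27 while Ddc (brighter probe set) lies at -0.025 and -0.33.

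Setting 3000 µM directly against 300 µM asks which of these genes keep their level when the dose is raised. At 24 h 4 of 10 probe sets were lower at 3000 µM and 0 higher, against 12.2% and 13.9% of all tested probe sets (limma, 5 with an unadjusted p under 0.05), and at 48 h 4 were lower and 1 higher, against 16.9% and 17.9%. The 300 µM arrays chose the members for being high, so lower values at 3000 µM are not independent of the choice. As background for any probe set chosen in this way, of the 285 higher at 300 µM at 24 h 30.5% were lower at 3000 µM than at 300 µM, as were 40% of the 135 at 48 h, and 66.7% and 61.5% were higher at 3000 µM than in vehicle. The members' counts lie near these shares, and nothing particular to the members is read from them. Meox2 is in both counts, but it reached the tested level at 300 µM alone, so its calls support nothing. With its 3000 µM mean set at that level, the 300 µM mean was 1.96-fold higher at 24 h and 1.32-fold higher at 48 h. These folds carry no sampling error. Ddc fell in its brighter probe set, with differences of -0.88 and -1.30 (limma adjusted p 3.15e-09 and 2.77e-13). Its other probe set differed by -0.24 and -0.59 and did not pass (limma adjusted p 0.547 and 0.067, and 0.0451 at 48 h without array 3 at 3000 µM). Grk5 fell, with differences of -0.54 and -0.87 (limma adjusted p 0.00263 and 4.74e-06).

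Uggt1 fell between the doses at 48 h, with a log2 difference of -0.70 (95% interval -0.96 to -0.44, limma adjusted p 5.42e-05), while at 24 h its difference of -0.31 (95% interval -0.57 to -0.046, limma adjusted p 0.0769) did not pass, though it did without array 2 at 300 µM (adjusted p 0.0234). Cers6 fell at 24 h with a difference of -0.31 (95% interval -0.54 to -0.091, limma adjusted p 0.0315), a call lost in 8 of 21 alternatives (adjusted p 0.00854 to 0.142 over all), among them those without array 1, 2 or 3 at 3000 µM or array 2, 3 or 4 at 300 µM, and differed by -0.086 (95% interval -0.31 to 0.14) at 48 h (adjusted p 0.585). Aass was the one member higher at 3000 µM, at 48 h, with a difference of 0.36 (95% interval 0.11 to 0.61, limma adjusted p 0.0237); the call was lost without array 2 or array 5 at 3000 µM or array 3 at 300 µM (adjusted p 0.0699 to 0.0845, and 0.00565 to 0.0845 over all alternatives). At 24 h the Aass difference was 0.0068 (95% interval -0.25 to 0.26) and the Tsku difference 0.012 (95% interval -0.25 to 0.27) (adjusted p 0.977 and 0.959), so for both a difference of more than 0.27 in either direction lay outside the interval. At 48 h Tsku differed by -0.30 (95% interval -0.56 to -0.041, limma adjusted p 0.0658), which did not pass, and without both arrays that stood apart by -0.48 (adjusted p 0.000177, and 0.000138 to 0.245 over all alternatives). In the same setting Cym also passed at 48 h (-0.46 and adjusted p 0.0837 with all arrays, -0.56 and 0.041 without them), which brought the count to 6 lower and 1 higher. Cym passed as well without array 1 at 3000 µM or array 4 at 300 µM (adjusted p 0.0407 and 0.0467). Srpx differed by 0.076 (95% interval -0.35 to 0.51) and -0.27 (95% interval -0.70 to 0.16) and passed at neither time (adjusted p 0.838 and 0.355). The arrays at 3000 µM lay wholly below those at 300 µM in 4 probe sets at 24 h and 5 at 48 h, against 10.1% and 10.8% of all. Both counts include Meox2, and the one at 48 h the dimmer Ddc probe set, whose 3000 µM mean there was below the tested level. The members were chosen for high 300 µM arrays, so the shares of all probe sets are no like comparison. Nothing particular to the members is read from these counts.

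Harvest time at 3000 µM is the comparison whose means use no array from the rule. The spread behind its intervals and p-values came from the fit to all arrays, those of the rule included. The calls are therefore not fully independent of the choice. In this comparison 2 of 10 probe sets were lower at 48 h than at 24 h, against 7.53% of all tested probe sets (6.42% were higher). The lower ones were Tsku, with a log2 difference of -0.73 (95% interval -0.99 to -0.47, limma adjusted p 0.000123), and Grk5, with -0.49 (95% interval -0.77 to -0.21, limma adjusted p 0.0129). Tsku averaged 12.38 ± 0.42 at 48 h and 13.11 ± 0.092 at 24 h on the log2 scale (SD, n = 5 each), and without array 4 at 48 h and array 1 of 24 h vehicle its difference was -0.91 (adjusted p 5.04e-08; its range over all alternatives is 2.65e-08 to 0.00984). The Grk5 call was lost without array 1 at 24 h or array 5 at 48 h and with only the compared groups in the fit (adjusted p 0.0552, 0.0642 and 0.0998, and 0.00598 to 0.0998 over all alternatives). Srpx, with a difference of -0.59 (95% interval -1.02 to -0.16, limma adjusted p 0.0567), and Ddc in its brighter probe set, with -0.23 (95% interval -0.41 to -0.053, limma adjusted p 0.0762), had lower means and unadjusted p-values under 0.05. Srpx passed without array 2 at 48 h (adjusted p 0.0131) and Ddc without array 1 at 48 h (adjusted p 0.00769). Aass, by contrast, differed by -0.15 (95% interval -0.40 to 0.10) and Cers6 by 0.029 (95% interval -0.19 to 0.25). In vehicle over the same interval the members' median difference was -0.076, and at 300 µM -0.18, the same as the -0.18 at 3000 µM; Aass and Tsku were at -0.50 and -0.42 at 300 µM, values given as description since the rule used those arrays.

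**Figure D3:**
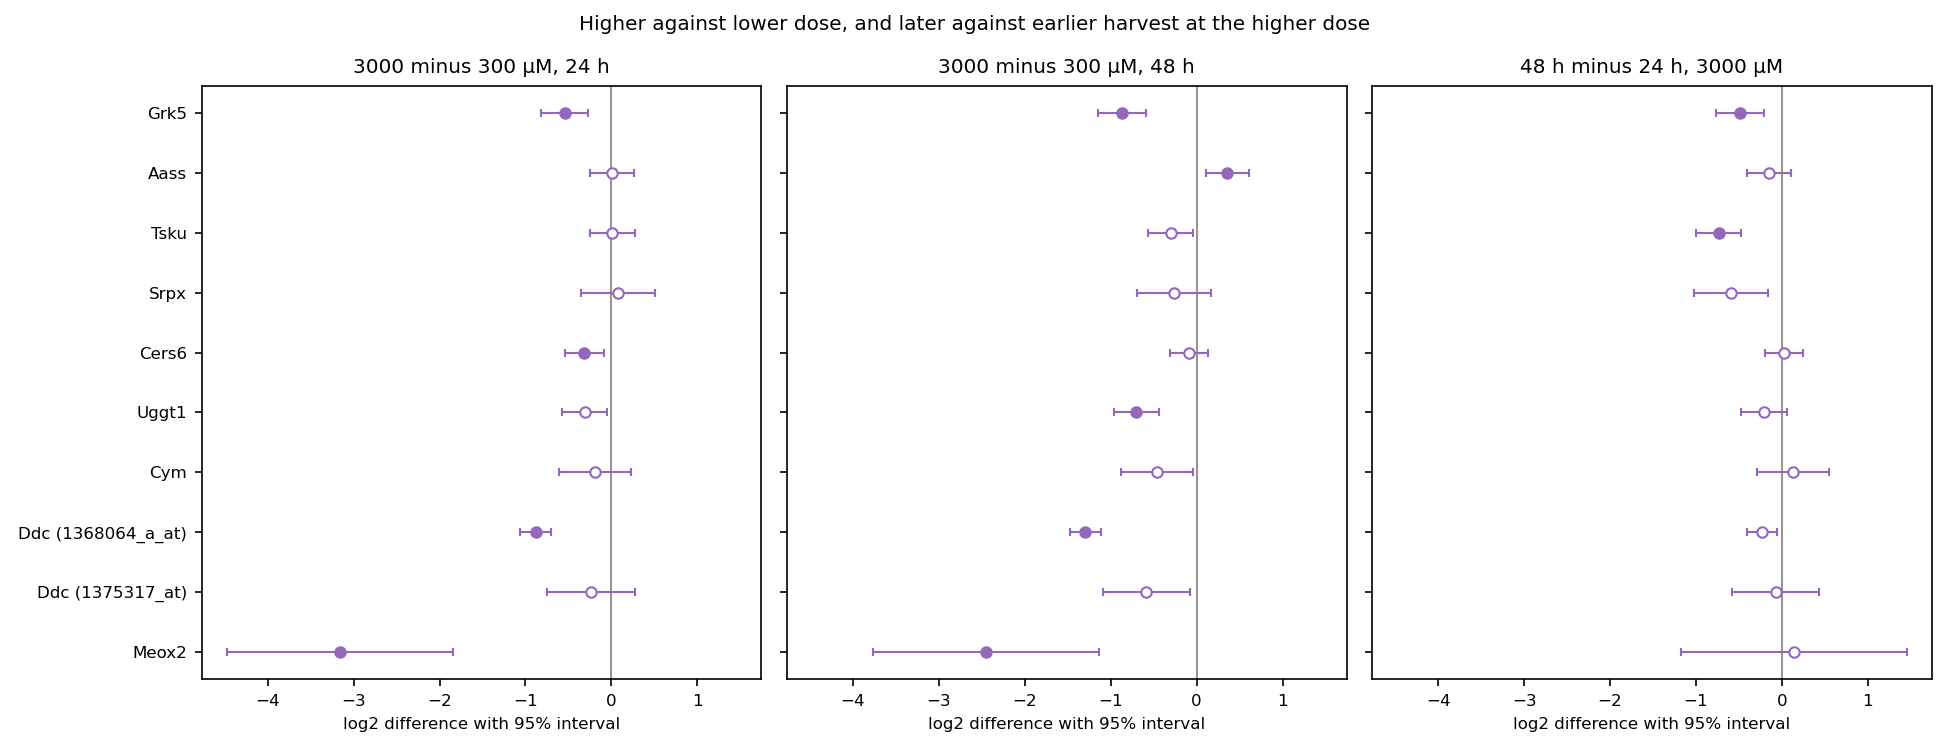
Log2 difference with 95% intervals from limma of 3000 µM from 300 µM at 24 h (left) and 48 h (middle), and of 48 h from 24 h at 3000 µM (right), for the 10 probe sets; filled circles have an adjusted p under 0.05. Ddc (brighter probe set) and Grk5 lie left of 0 in both dose panels, as does Meox2, whose means at 3000 µM are below the tested level, and in the time panel Grk5 and Tsku are the filled ones.

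The change in the 3000 µM effect between the times, each effect taken against its own vehicle, passed for no member (limma, 2 with an unadjusted p under 0.05, against 4.15% of all tested probe sets past the adjusted threshold). Tsku was nearest, with a difference of effects of -0.57 (95% interval -0.94 to -0.20, limma adjusted p 0.0675), and Ddc in its brighter probe set followed with -0.30 (95% interval -0.55 to -0.048, limma adjusted p 0.172). Tsku passed without both arrays that stood apart (-0.73, adjusted p 0.00248, and 0.00105 to 0.137 over all alternatives) and without array 5 of vehicle at 24 h (0.0449), and Ddc passed without array 1 at 3000 µM at 48 h (0.0391). At 300 µM the effects at 48 h minus those at 24 h ranged from -0.46 for Cers6 to 0.56 for Cym, as a description, with Meox2 left out for its level.

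The members' profiles over the 30 arrays are given as a description of arrays that share their 6 group means. Grk5 and Uggt1 had r = 0.85, Grk5 and Tsku 0.82, Aass and Tsku 0.79, Ddc (brighter probe set) and Uggt1 0.79, and Ddc and Meox2 0.77. Aass and Ddc had r = 0.18, and Meox2 and Srpx 0.053. Within groups, after the group means were taken off, the pairs with the highest r were Ddc and Uggt1 (0.58) and Ddc and Grk5 (0.50), while Meox2 and Tsku had -0.42. The vehicle and 3000 µM means of Meox2 lay below the tested level. Its r values rest in part on such signals, and nothing is read from them. Array 5 at 3000 µM at 48 h was the lowest of its group in Grk5, Uggt1, Tsku and Cym.

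**Figure D4:**
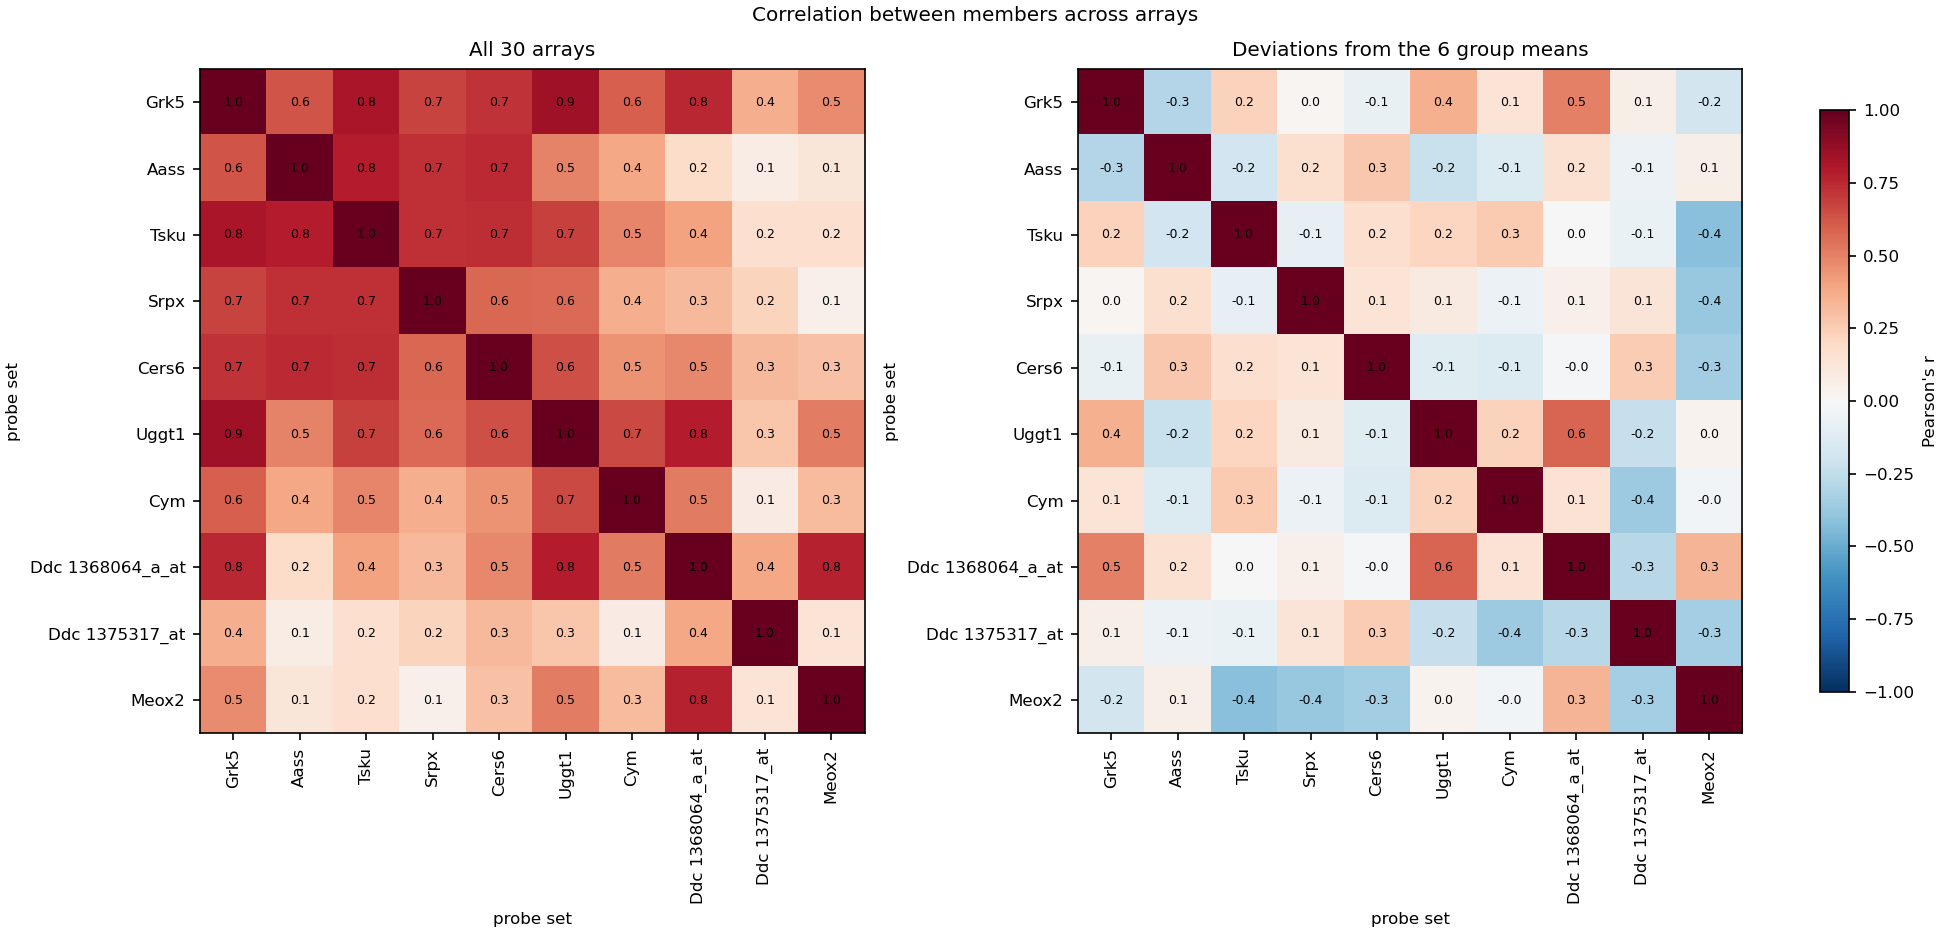
Pearson's r between the 10 probe sets over all 30 arrays (left) and over deviations from the 6 group means (right), on a scale from -1 in blue to 1 in red. Over all arrays Ddc (brighter probe set) and Meox2 pair at 0.77 and Aass and Tsku at 0.79, and within groups most pairs lie near 0. Meox2 reached the tested level, as a group mean, in the low-dose groups alone, so nothing is read from its pairs.

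Among 9747 other genes with 1 probe set each, the 3 most like each member over the 30 arrays included several of drug metabolism. The group means were not taken off for this ranking. It therefore rests in part on the low-dose and vehicle arrays that chose the members. A gene higher at the low dose than in vehicle can rank near a member for that reason alone. The r values below are thus a description, and no shared regulation is read from them. Cyp2c6v1, a drug-metabolizing P450, was among the 3 most like Grk5 (r = 0.87), Tsku (0.87), Cers6 (0.83), Uggt1 (0.80) and Cym (0.64). Alas1, which starts heme synthesis, was second for Ddc (0.90), after Itgae (0.92), an integrin gene, and before Ddit4l (0.90). Meox2 was most like Ddc itself (0.77), then the P450 gene Cyp2d2 and the pentose phosphate gene Pgd (0.74 each). Meox2 reached the tested level, as a group mean, in the low-dose groups alone, so no likeness is read from these r values. Aass was most like Rnf115 (0.91), a ubiquitin ligase gene, the chemokine gene Cxcl9 (0.88) and Serp1 (0.85). Srpx was most like the carrier gene Slc25a45 (0.74), then Aass and the P450 gene Cyp2c11 (0.73 each). Tex2 for Grk5 (0.87), Abcb11 (0.83) and Crp (0.82) for Tsku, Gch1 (0.77) and Azin1 (0.76) for Cers6, Sowahc for Uggt1 (0.85) and Ugt2b1 for Cym (0.64) were the remaining ones, beside the member pairs of Grk5 with Uggt1 and of Cym with Uggt1 (0.66).

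Drug-metabolism genes also differed in their values between the doses. Cyp2b1 and Cyp2b2, the best known phenobarbital targets, are read by 1 joint probe set, which had log2 differences from vehicle of 4.61 and 3.71 at 300 µM, and 1.17 and 0.12 at 3000 µM, at 24 h and 48 h. Its 3000 µM means were raised by array 1, which read 5167 at 24 h against 2890.5 to 3256 in the others. At 48 h array 1 read 5399 against 1315 to 1760. Alas1, at 0.76 and 0.62 at 300 µM and -0.32 and -0.36 at 3000 µM, was like the brighter Ddc probe set higher at the low dose alone. Cyp2c6v1 was far above vehicle at 3000 µM too (1.68 and 1.72, against 2.04 and 2.25 at 300 µM), and the efflux pump gene Abcb1a was larger there (1.28 and 1.47, against 0.70 and 0.16). Cyp3a23-3a1, another usual target, differed by 0.034 and 0.25 at 300 µM and 0.017 and 0.35 at 3000 µM. Both arrays that stood apart were far above their groups in it. Array 4 at 3000 µM at 48 h read 144970 against 70778 to 77155 in the others. Vehicle array 1 at 24 h read 98226 against 71613 to 75258. Its 24 h differences and the 0.35 therefore rest in part on these arrays, and no values without them are given. The comparisons with vehicle share the vehicle arrays, so the values of these genes are set side by side without a test of likeness.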

How the data were processed

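Expression was read on 30 arrays, 1 per culture well, in 6 groups of 5. The authors deposited probe set intensity values on a linear scale, made with MAS5, per the submitters' processing notes; its version and target value are not given in the sources used here. The mean after trimming 2% at each end was 1501 on each array. Probe sets with 1 gene symbol numbered 20832, with several 436 and with none 9831, in the platform annotation; all member symbols came from it.

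Values were put on the log2 scale without a constant. Testing needed at least 1 group mean at or over the median of the whole table (log2 8.58, a signal of 384), which left 16596 probe sets. A single model with a mean per group was fitted to the 30 arrays with limma 3.58.1 (R 4.3.3; eBayes with trend and robust), two-sided, with Benjamini-Hochberg adjustment over all tested probe sets in each comparison and a threshold of 0.05. The number of arrays limits the precision. The code was tested on simulated data.

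The members and the gene lists were chosen with earlier results of these data known. Named genes are the 9 members, the 3 genes most like each (highest r over the arrays), up to 3 changed genes per list at 3000 µM against vehicle with the largest difference, and 5 drug-metabolism genes. Wells with close running numbers form 5 sets of 6. Deviations of arrays from 1 set correlated at a mean of 0.0052, against -0.0013 for arrays of different sets. A mean over all tested probe sets cannot show whether wells of a set were handled together. The labels do not state what the numbers mean, so the main fit did not pair the samples. Alternatives covered normalization, a constant before log2, the filter, the fit, a block and left-out arrays. Promoter windows come from RefSeq, build GRCr8.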

Additional observations from a re-analysis of the deposited data

Results flagged for a closer look

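With 60 groups of 5 arrays examined among the 10 probe sets, 2 single arrays lay far from the rest of their group, where chance gives about 1 group in 20. Uggt1 read 7941 in array 5 of the 300 µM group at 48 h, against 6572 to 6927 in the other 4 arrays. Cym read 306 in array 5 of the 300 µM group at 24 h, against 477 to 538 in the other 4, and that array alone makes the group overlap vehicle. Neither array stood apart in its hybridization controls.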

How the results depend on the processing

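No called result changed direction. The members called lower at 48 h against 24 h at 3000 µM numbered 2. The count was 1 with only the compared groups in the fit and 3 with quantile normalization, centred array medians, the larger constant before log2 or the stricter filter; leaving out single arrays gave 1 to 3. For the change in the 3000 µM effect between the times the count of 0 became 1 with array weights and 1 without both arrays that stood apart, and lay between 0 and 1 when single arrays were left out. The fit with a replicate block (the running-number sets) called 7 members at 3000 µM against vehicle at 48 h, with Cym added at an adjusted p of 0.0479, and left the other counts of called members as they were. Cym, in that comparison, passed in 8 of 21 alternatives and Uggt1 in 2. Uggt1, at 3000 µM against 300 µM at 24 h, passed in 3 and Srpx, at 48 h against 24 h at 3000 µM, in 5. The cause of these shifts was not tested. Dim probe sets (Meox2, Cym, Srpx and the dimmer Ddc probe set) lie near the tested level, where the spread between arrays is wide.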
